A study of Homo sapiens with 10 samples.

Results

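Immediate early genes are genes whose transcription rises within minutes of a stimulus without any new protein synthesis. A list of 38 of them was followed through gastric cancer cells that had been sorted into a side population and a non-side population or left unsorted. The members were chosen by symbol, with 1 probe set per gene, the one of highest mean intensity among those annotated to exactly 1 symbol. A probe set was found for 36 of the 38, out of 19775 genes in all; EGR2 and BTG2 were not analysed here. Of the 36, 33 passed the filter on low values that also left 9888 of the 19775 genes for testing, and EGR3, NR4A3 and DUSP5 fell under it. Side population cells keep little of a Hoechst dye because membrane transporters pump it out, and a cell sorter separates these dim cells from the bright rest, the non-side population. The side population and the non-side population had 4 arrays each, with replicate letters a to d, and the unsorted cells had 2, with letters a and b. For each array total RNA is named as the molecule taken from the cells and biotin as the label. AGS and MKN 45 are established gastric carcinoma lines. The origin label names both lines for every array, and the source label names AGS for 8 arrays and no line for side population replicates a and b. All cells were grown at 37 °C with fetal bovine serum, 10% for AGS and 20% for MKN 45, and were detached with trypsin for 5 min. The labels do not tie replicates to separate cultures: each p-value therefore reflects sample-to-sample spread that may be only technical. The labels do not say whether unsorted cells were stained or passed through the sorter. Any difference in these steps and the populations themselves cannot be told apart.

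Serum, growth factors and cellular stress activate immediate early genes through protein kinases, chiefly the ERK, JNK and p38 MAP kinases. The kinases act on transcription factors that already sit at the promoter: serum response factor (SRF) with its ETS partners of the ELK family at the CArG box, and CREB at the cAMP response element (CRE). The products are largely transcription factors that switch on a later set of genes, together with phosphatases and RNA-binding proteins that end the response, and their mRNAs are short-lived.

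The promoters of 4 members are shown because their genes were higher in sorted cells and because they hold the letters that SRF or CREB is known to recognise. Each is the 250 bases before an annotated start of the gene, from RefSeq on GRCh38.p14, 5′ to 3′ on the gene's strand. Capitals mark CArG boxes, the CRE TGACGTCA and its core TGACG on either strand. SRF and MAFF each have a further window, at another annotated start, that held 0 CArG boxes and 0 cores and is not printed. EGR1 lies on the plus strand at chr5:138465229-138465478, SRF on the plus strand at chr6:43171019-43171268, DUSP1 on the minus strand at chr5:172771196-172771445 and MAFF on the plus strand at chr22:38201744-38201993.
EGR1: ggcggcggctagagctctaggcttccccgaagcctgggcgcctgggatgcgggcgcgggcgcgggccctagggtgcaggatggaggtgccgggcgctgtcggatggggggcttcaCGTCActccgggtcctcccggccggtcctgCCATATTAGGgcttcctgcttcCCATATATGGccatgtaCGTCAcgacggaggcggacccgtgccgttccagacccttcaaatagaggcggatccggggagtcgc
SRF: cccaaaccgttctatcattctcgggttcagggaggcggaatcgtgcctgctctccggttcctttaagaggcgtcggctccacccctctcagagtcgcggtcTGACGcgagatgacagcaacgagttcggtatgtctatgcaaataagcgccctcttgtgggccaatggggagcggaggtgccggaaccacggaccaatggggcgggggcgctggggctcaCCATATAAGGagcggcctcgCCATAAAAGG
DUSP1: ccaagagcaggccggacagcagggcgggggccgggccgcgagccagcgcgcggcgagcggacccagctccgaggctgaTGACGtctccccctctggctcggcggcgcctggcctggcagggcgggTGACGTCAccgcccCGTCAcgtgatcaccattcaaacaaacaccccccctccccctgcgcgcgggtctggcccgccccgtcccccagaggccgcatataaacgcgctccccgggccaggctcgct
MAFF: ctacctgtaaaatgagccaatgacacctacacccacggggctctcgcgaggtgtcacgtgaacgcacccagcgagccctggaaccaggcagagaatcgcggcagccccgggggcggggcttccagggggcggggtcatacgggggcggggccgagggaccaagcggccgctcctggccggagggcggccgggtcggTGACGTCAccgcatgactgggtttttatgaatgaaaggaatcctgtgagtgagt
The EGR1 window holds 2 CArG boxes, at -105 and -83 counted from the start site, with a TGACG core on each side of the pair at -135 and -66. SRF, whose product binds such boxes, has 2 of them in its printed window, at -30 and -10. In DUSP1 a full CRE begins at -125 and further cores at -172 and -111, and in MAFF a full CRE begins at -54. Windows were held for 27 of the 36 measured members. A CArG box was found in EGR1 and SRF among these 27 and in 1.44% of 27305 genes with a window. The full CRE was found in 5 members, DUSP1, JUND, MAFF, PPP1R15A and ZFP36L1, and in 2.03% of all genes. The core TGACG, which the full CRE contains, was found in 17 members and 24.9% of all genes. The EGR site GCGNGGGCG was found in 8 members and 10.1% of all genes, and the AP-1 site TGANTCA in 0 members and 8.06%. A gene was counted once, whichever of its windows held the letters. All motifs were searched on both strands, and a match describes letters in these 250 bases only. Of the 13 members called higher in sorted cells (given below), 10 had a window. Among these 10, 2 held a CArG box, 2 the full CRE and 6 the core TGACG. JUND, PPP1R15A and ZFP36L1 were not called, and a link between these letters and the rise was not tested.

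On the 10 arrays, EPCAM and the keratins KRT8, KRT18 and KRT19 read high throughout (medians of 19483 to 37401), and the epithelial cadherin CDH1 read 242 to 468. Among 8 measured markers of blood and endothelial cells, PTPRC read at most 34.4, CD3E at most 69.0, CD14 at most 112, PECAM1 at most 201, VWF at most 27.7 and CDH5 at most 31.0, all under the filter. The globin HBB read 85.1 to 233, just above the filter on average, and lysozyme (LYZ), which gastric glands also make, read 6247 to 43612. COL1A1 was the 1 of 6 fibroblast markers above the filter. The ratio of 3′ to 5′ actin intensity was 3.34 in side population replicate a and 0.987 to 1.28 elsewhere. For GAPDH this ratio was 1.87 in side population replicate a and 0.864 to 1.06 elsewhere. The 18S ribosomal RNA control read 22182 to 33704 on 6 sorted arrays and under 1000 on side population replicate d, non-side population replicate c and both unsorted arrays. In cell populations measured in bulk, fewer cells of a type and less RNA per cell cannot be told apart.

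Many immediate early genes were higher in sorted than in unsorted cells: of the 33 tested members, 13 rose and 0 fell (limma, adjusted p under 0.05 over all 9888 genes), where 3.6% of all tested genes rose and 1.65% fell. The 13 were FOSB, EGR1, MAFF, IER3, NR4A2, CCN2, TRIB1, SRF, ATF3, IER5, DUSP1, BTG1 and KLF6. Their log2 differences, sorted minus unsorted, ran from 0.81 ± 0.22 for KLF6 to 2.20 ± 0.56 for FOSB (value and standard error of the fit). At an unadjusted p under 0.05 there were 19 members, all higher, where 20.3% of all genes differed in either direction. The difference was positive for 30 members, against 50.6% of all genes tested, and the median over the 33 was 0.81, against 0.01 over all genes. All 8 sorted arrays were above both unsorted arrays for 15 members, against 11% of all genes, and all below for 0 members, against 9.54%. On a scale where each member is set against its own mean log2 over the 10 arrays, the median member stood at -0.72 and -0.55 on the unsorted arrays and at -0.29 to 0.35 on the sorted arrays. The same medians over all genes tested lay between -0.09 and 0.09. Only 3 of 33 members were above their own mean on unsorted replicate a, and 3 on unsorted replicate b, while the sorted arrays had 12 (non-side population replicate b) to 32 (non-side population replicate c).

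**Figure D1:**
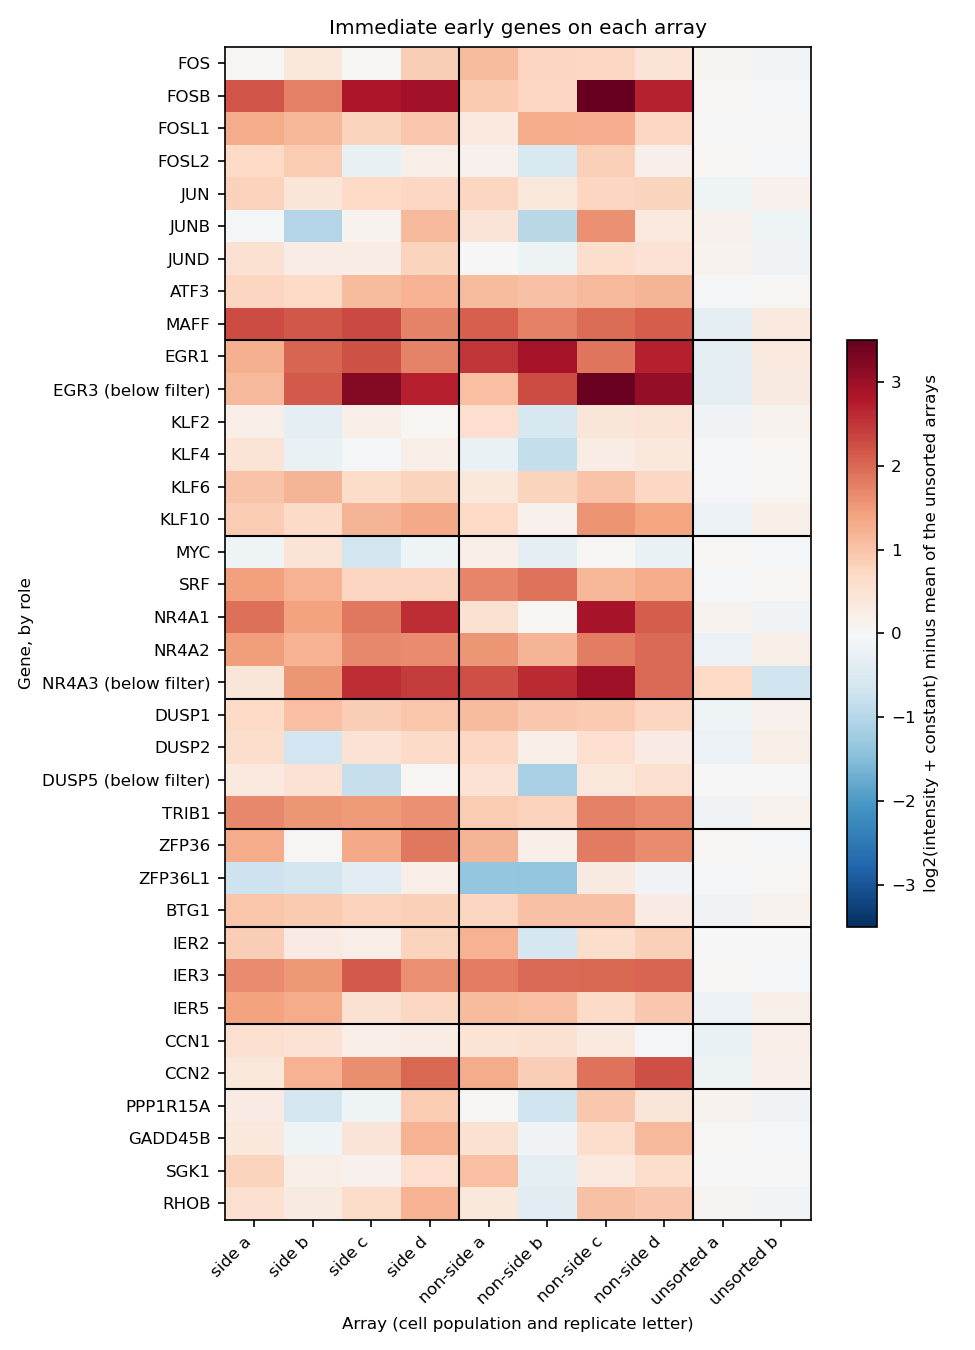
Log2 intensity of each measured member (rows, by role) on each array (columns), as the difference from the mean of the 2 unsorted arrays, which sit at or near 0 by construction. Rows such as MAFF, IER3 and NR4A2 are raised on all 8 sorted arrays, while FOSB and NR4A1 are raised less on non-side population replicates a and b than on c and d.

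**Figure D2:**
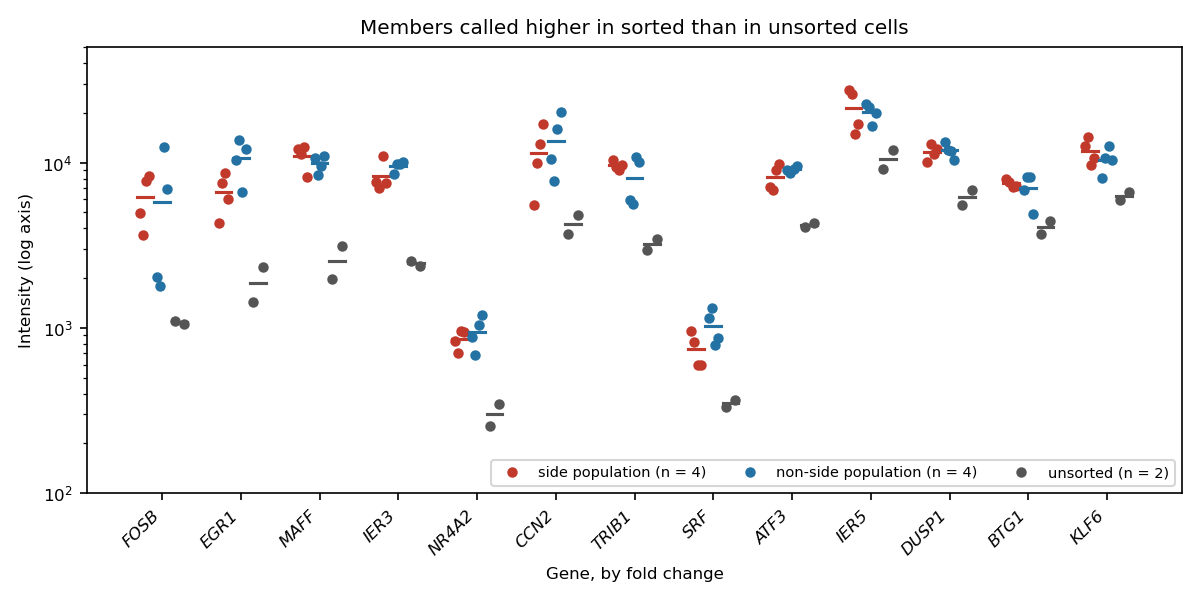
Intensity (log axis) of the 13 called members on each array, with points by group and a line at each group's mean. All sorted points lie above both unsorted points for each of the 13 genes, and FOSB has the widest spread within a group.

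These calls rested on the 2 unsorted arrays. Without unsorted replicate a, 1 member was called in sorted minus unsorted (IER3; 0.142% of all genes), and without unsorted replicate b 4 were (EGR1, IER3, MAFF and NR4A2; 0.475% of all genes). The 2 sorted arrays with a low 18S control, like the unsorted arrays, had a median member difference from unsorted of 0.93 with 32 of 33 positive, and the other 6 sorted arrays 0.78 with 28 positive. That division was made after the data were seen, and the same values over all genes tested were not computed for it. Against its own mean log2 over the 10 arrays, the median of all genes tested stood at 0.06 on side population replicate d. It stood at 0.03 on non-side population replicate c, and at -0.005 and -0.015 on unsorted replicates a and b.

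AP-1 is a dimer of a FOS-family and a JUN-family protein, and ATF3 and MAFF are related basic leucine zipper factors. All 9 tested genes of this group had a positive difference, 3 were called (FOSB, ATF3 and MAFF), and the median was 0.66. Intensities are given in the order of replicates a to d, or a and b for unsorted cells. MAFF, a small MAF protein, read 12039, 11236, 12434 and 8233 in side population cells, 10609, 8455, 9564 and 10903 in non-side population cells, and 1966 and 3142 in unsorted cells. Every sorted array was thus well above both unsorted arrays, by 2.05 ± 0.23 on the log2 scale or 4.15-fold (limma adjusted p = 0.000514). ATF3, a stress-induced factor, read 7082, 6776, 9009 and 9773 in side population cells, 9030.3, 8592, 9166 and 9527 in non-side population cells, and 4090.0 and 4287 in unsorted cells. It was higher on all 8 sorted arrays, by 1.03 ± 0.20 (limma adjusted p = 0.0119), and the sorted arrays lay close together.

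FOSB read 4960.2, 3662, 7702 and 8303 in side population cells, 2026, 1794, 12384 and 6954 in non-side population cells, and 1107 and 1049 in unsorted cells. All sorted arrays exceeded both unsorted arrays, by 2.20 ± 0.56 (limma adjusted p = 0.0383), but non-side population replicates a and b stood far below replicates c and d. FOS itself, the founding member, read 5543, 6847, 5526 and 9647 in side population cells, 11442, 9036, 8801 and 7402 in non-side population cells, and 5719.6 and 4996 in unsorted cells. Its sorted and unsorted ranges overlapped, and the difference of 0.54 ± 0.25 did not pass (limma adjusted p = 0.229). JUN, the usual partner of FOS, read 17528, 13312, 16132 and 16413 in side population cells, 16974, 12894, 16949 and 17142 in non-side population cells, and 9085 and 11014 in unsorted cells. Here too no sorted array fell as low as an unsorted one, yet the difference of 0.66 ± 0.20 did not pass (limma adjusted p = 0.0740). FOSL1 read 1456, 1323, 1008 and 1127 in side population cells, 736, 1441, 1418 and 972 in non-side population cells, and 591 and 575 in unsorted cells. Its groups did not overlap either, with a difference of 0.98 ± 0.27 (limma adjusted p = 0.0514). FOSL2, JUNB and JUND had differences of 0.27 ± 0.34, 0.20 ± 0.53 and 0.35 ± 0.24 and were not called.

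Among the zinc finger factors, EGR1 and KLF6 rose, of 5 tested with a median of 0.81. EGR1, which carries the paired CArG boxes printed above, read 4296, 7563, 8595 and 6042 in side population cells, 10316, 13699, 6652 and 12018 in non-side population cells, and 1435 and 2320.2 in unsorted cells. Sorted exceeded unsorted by 2.15 ± 0.31, or 4.44-fold (limma adjusted p = 0.00182). Non-side population replicates a, b and d were the highest arrays on this probe set. The further EGR1 probe sets differed between side and non-side population by only 0.07 and 0.07. KLF6 read 12604, 14269, 9698 and 10678 in side population cells, 8026, 10678, 12557 and 10426 in non-side population cells, and 5936 and 6612 in unsorted cells. The difference was 0.81 ± 0.22 (limma adjusted p = 0.0491), near the threshold. KLF10, first known as a TGF-beta-induced factor, had a difference of 0.99 ± 0.32 and did not pass (limma adjusted p = 0.0936); KLF2 and KLF4 differed by 0.14 ± 0.29 and -0.01 ± 0.29. EGR3 lay under the filter, at 59.0, 127, 269 and 191 in side population cells, 55.6, 138, 324 and 245 in non-side population cells, and 17.7 and 31.2 in unsorted cells. All its sorted arrays were above both unsorted arrays, at low intensity, and with no filter the difference was 2.39 ± 0.61 (limma adjusted p = 0.0572).

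SRF and NR4A2 rose among the other transcription factors, of 4 tested. SRF, the factor that binds the CArG box, read 963, 823, 592 and 598 in side population cells, 1146, 1315, 785 and 869 in non-side population cells, and 334 and 365 in unsorted cells. It was higher on all sorted arrays, by 1.28 ± 0.27 (limma adjusted p = 0.0162). NR4A2, an orphan nuclear receptor, read 833, 700.1, 959 and 949 in side population cells, 882, 689.8, 1034 and 1191 in non-side population cells, and 254 and 346 in unsorted cells. Its 8 sorted values lay within a narrow band above both unsorted values, by 1.57 ± 0.25 (limma adjusted p = 0.00431). The related NR4A1 read 2978, 2093, 2839 and 4688 in side population cells, 1137, 803, 5765 and 3419 in non-side population cells, and 849 and 719 in unsorted cells. Non-side population replicate b lay between the unsorted arrays, and the difference of 1.67 ± 0.55 did not pass (limma adjusted p = 0.0933). NR4A3 lay under the filter, at 25.5 to 178 on the sorted arrays and 32.0 and 8.3 on the unsorted ones. MYC, a growth regulator, read 4561, 7057, 3263 and 4558 in side population cells, 5929, 4077, 5166 and 4305 in non-side population cells, and 5153 and 4959 in unsorted cells. Its groups overlapped fully, with a difference of -0.09 ± 0.26 (limma adjusted p = 0.887).

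Of the genes that restrain kinase signalling, DUSP1 and TRIB1 rose, of 3 tested. DUSP1, the phosphatase that inactivates JNK and p38, read 10077, 12864, 11201 and 12015 in side population cells, 13364, 11937, 11713 and 10310.2 in non-side population cells, and 5522 and 6866 in unsorted cells. It varied least of the 33 members among the sorted arrays, 1.33-fold from lowest to highest, and exceeded unsorted by 0.92 ± 0.20 (limma adjusted p = 0.0176). TRIB1, a pseudokinase that directs proteins to degradation, read 10333, 9339, 9046 and 9708 in side population cells, 5897, 5612, 10795 and 10017 in non-side population cells, and 2959.8 and 3457 in unsorted cells. The difference was 1.43 ± 0.26 (limma adjusted p = 0.00745), and non-side population replicates a and b were the lowest sorted arrays. DUSP2 differed by 0.37 ± 0.32 and was not called, and DUSP5, under the filter, read 34.0 to 123 on sorted arrays and 81.2 and 81.8 on unsorted ones.

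ZFP36 and ZFP36L1 bind AU-rich elements and speed the decay of the mRNAs that carry them, and BTG1 slows proliferation. BTG1 was the 1 of these 3 that rose. It read 7939, 7639, 7132 and 7259 in side population cells, 6809, 8163, 8157 and 4889 in non-side population cells, and 3684 and 4429.8 in unsorted cells, a difference of 0.83 ± 0.22 (limma adjusted p = 0.0485). ZFP36 differed by 1.17 ± 0.42 and ZFP36L1 by -0.51 ± 0.40, neither of them called (limma adjusted p = 0.128 and 0.502). ZFP36L1 was called lower, however, with only the sorted arrays of letters a and b (-1.03, limma adjusted p = 0.00465). It was also called lower with the replicate letter as a block (-1.03, limma adjusted p = 0.0351). The unsorted arrays carry only letters a and b, so the block estimate rests on the same arrays and is not a separate result. With only letters c and d ZFP36L1 differed by 0.0042 (limma adjusted p = 0.993). ZFP36L1 had the lowest difference of the 33 members, and non-side population replicates a and b, at 2216 and 2152, stood well under the unsorted arrays at 5355 and 5952.

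In the IER group, IER3 and IER5 rose, of 3 tested. IER3, a regulator of cell survival, read 7675, 6981, 10903 and 7506 in side population cells, 8510.3, 9748, 9846 and 10116 in non-side population cells, and 2536 and 2369 in unsorted cells. The lowest sorted array was well above both unsorted arrays, and the difference was 1.84 ± 0.21 (limma adjusted p = 0.000514). IER5 read 27488, 25845, 14947 and 17126 in side population cells, 22650.0, 21793, 16663 and 19985 in non-side population cells, and 9107 and 11927 in unsorted cells. Its difference was 0.97 ± 0.25 (limma adjusted p = 0.0383). IER2 differed by 0.53 ± 0.35 and did not pass (limma adjusted p = 0.42). Of the secreted matricellular proteins, CCN2 (connective tissue growth factor) read 5563, 9909, 13007 and 17003 in side population cells, 10466, 7714, 15897 and 20134 in non-side population cells, and 3699 and 4822 in unsorted cells. It was higher on every sorted array, by 1.45 ± 0.38 (limma adjusted p = 0.0424), with side population replicate a the lowest of them. CCN1 differed by 0.36 ± 0.23 and was not called. None of the 4 stress and signalling genes PPP1R15A, GADD45B, SGK1 and RHOB was called, with differences of 0.14 ± 0.39, 0.50 ± 0.34, 0.43 ± 0.30 and 0.58 ± 0.32.

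Each sorted population was also set against the same 2 unsorted arrays, which the comparisons share. In side population cells 7 members rose and 0 fell (limma, adjusted p under 0.05), where 1.89% of all genes tested rose and 0.556% fell. There 31 of 33 differences were positive, against 53.4% of all genes, and the median member difference was 0.89 against 0.04 over all genes. In non-side population cells 8 members rose and 0 fell, where 2.46% of all genes rose and 1.2% fell. Here 30 of 33 were positive, against 49.1%, and the median was 0.76 against -0.01. The 7 were ATF3, DUSP1, EGR1, IER3, MAFF, NR4A2 and TRIB1, and the 8 were these and SRF. For MAFF the log2 difference from unsorted was 2.12 ± 0.26 (side population) and 1.98 ± 0.26 (non-side population). For EGR1 it was 1.81 ± 0.34 (side population) and 2.49 ± 0.34 (non-side population). IER3 showed 1.73 ± 0.23 (side population) and 1.96 ± 0.23 (non-side population). SRF showed 1.05 ± 0.29 (side population) and 1.51 ± 0.29 (non-side population), with limma adjusted p = 0.0735 and 0.0135. Leaving out unsorted replicate a, unsorted replicate b or non-side population replicate c turned the side population count into 0, 1 or 13 (0.101%, 0.172% and 4.07% of all genes called); the non-side population count was 1 and 3 without unsorted replicate a and b (0.172% and 0.405%). With the replicate letter as a block ATF3 was not called in the side population (limma adjusted p = 0.0641), and ZFP36L1 was called lower in the non-side population (-1.15, limma adjusted p = 0.0307).

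Between side and non-side population cells 0 of 33 members were called (limma, adjusted p under 0.05; 0% of all genes tested), and 1 member, EGR1, had an unadjusted p under 0.05, where 4.35% of all genes did. The smallest adjusted p among the members was 0.997. The difference, side minus non-side population, was positive for 17 and negative for 16 members (57.3% of all genes were positive), with a median of 0.02 against 0.05 over all genes. Centred on the median of the tested genes, where the median of all genes became -0.06, 12 members were positive and the median was -0.08. No member had all 4 side population arrays above or all 4 below the non-side population arrays (1.01% and 0.576% of all genes). EGR1 differed by -0.69 ± 0.28 on its chosen probe set (limma, unadjusted p = 0.0257, adjusted p = 0.997). Its further probe sets gave 0.07 and 0.07. SRF differed by -0.47 ± 0.24 and FOS by -0.43 ± 0.22. On the other side, NR4A1 differed by 0.55 ± 0.49 and FOSB by 0.47 ± 0.50. The 95% interval of the difference lay within 1 on the log2 scale, in either direction, for 27 of the 33 members. It reached furthest for JUNB, down to -1.33, and for NR4A1, up to 1.59; differences up to these sizes lay within the intervals of those genes.

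**Figure D3:**
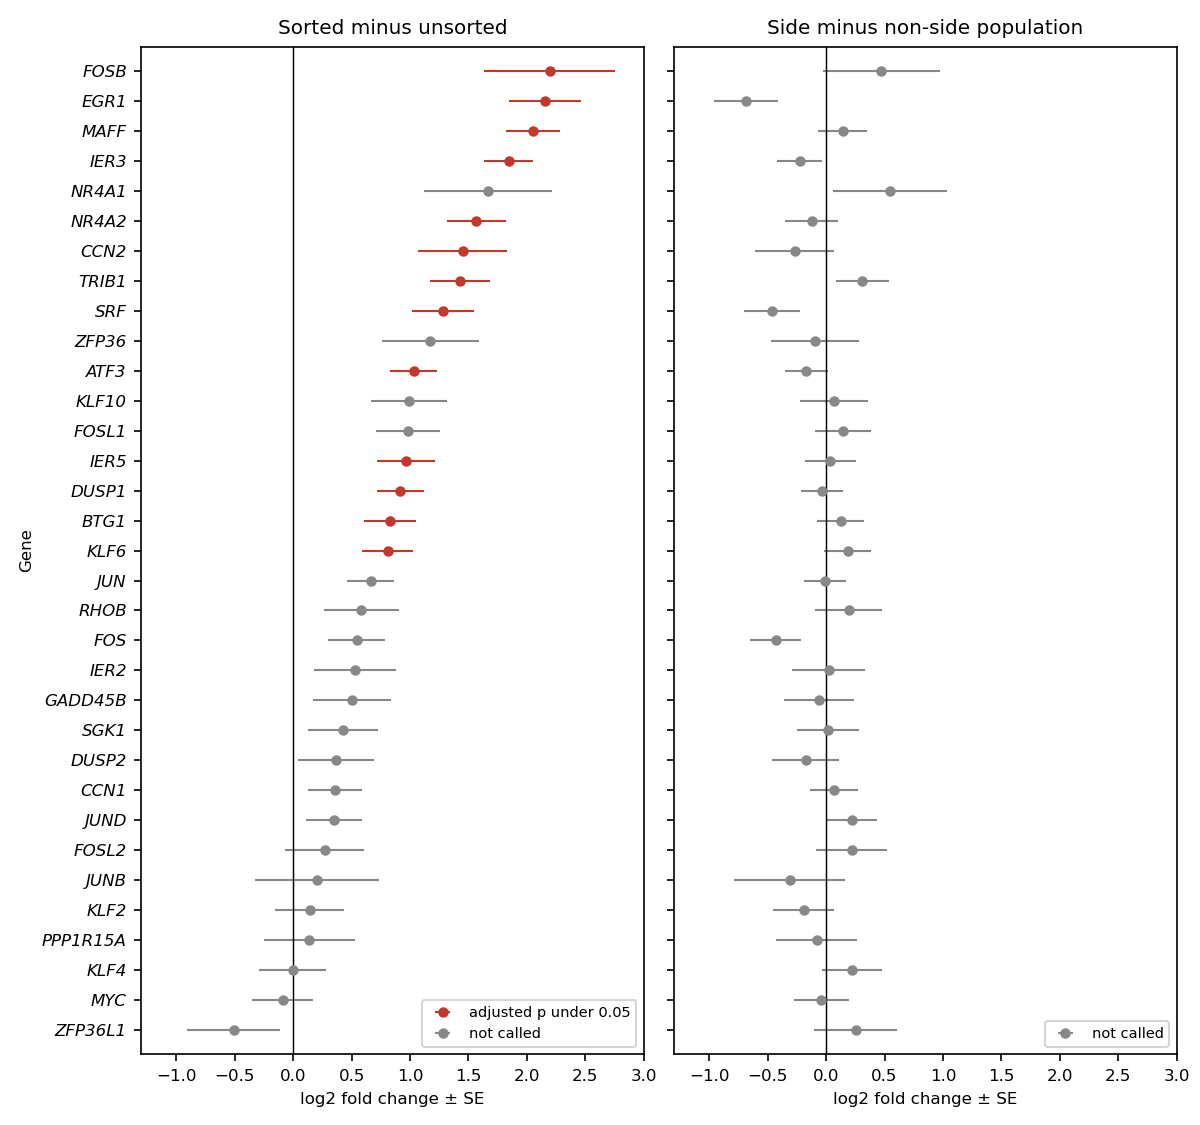
Log2 fold change (point) and its standard error (bar) of the 33 tested members, sorted minus unsorted on the left and side minus non-side population on the right, in the order of the left panel. On the left 30 of 33 points lie above 0 and the 13 called ones are red, and on the right no point is called.

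Replicates a and b gave other values than c and d in this comparison; that division was known from earlier results of these data. Within letters a and b alone, 6 members were called (limma, adjusted p under 0.05), with 5 members higher and 1 lower in the side population. There 9.93% of all genes were called. Within c and d 0 members were called, with a smallest member adjusted p of 0.844 (limma). The share of all genes called within c and d is not given here, so that 0 describes no trait of the members. NR4A1 differed by 1.38 within a and b (adjusted p = 0.0320) and by -0.28 within c and d. FOSB differed by 1.16 (adjusted p = 0.0320) and by -0.21. FOSL2, TRIB1 and ZFP36L1 differed by 0.98, 0.77 and 0.68 within a and b, and by -0.55, -0.15 and -0.18 within c and d. FOS was the member that fell, by 0.72 on the log2 scale within a and b (adjusted p = 0.0493), against -0.14 within c and d. In SRF the pairs gave -0.46 and -0.47. Tested directly, the difference between the letter pairs passed for 0 of 33 members and 0 of 9888 genes (limma; smallest member adjusted p = 0.0994); 7 members and 26.8% of all genes had an unadjusted p under 0.05. Side population replicates a and b are the arrays whose source label names no line, so label and population cannot be told apart there. They also had the lowest LYZ, at 6247 and 12778, against 24160 to 43612 on the other 8 arrays. The summed blood and endothelial list, nearly all of it LYZ, was 6792 and 13196 there. Side population replicate a also had the highest 3′ to 5′ ratios, 3.34 for actin and 1.87 for GAPDH. The part of these differences in the result was not tested.

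**Figure D4:**
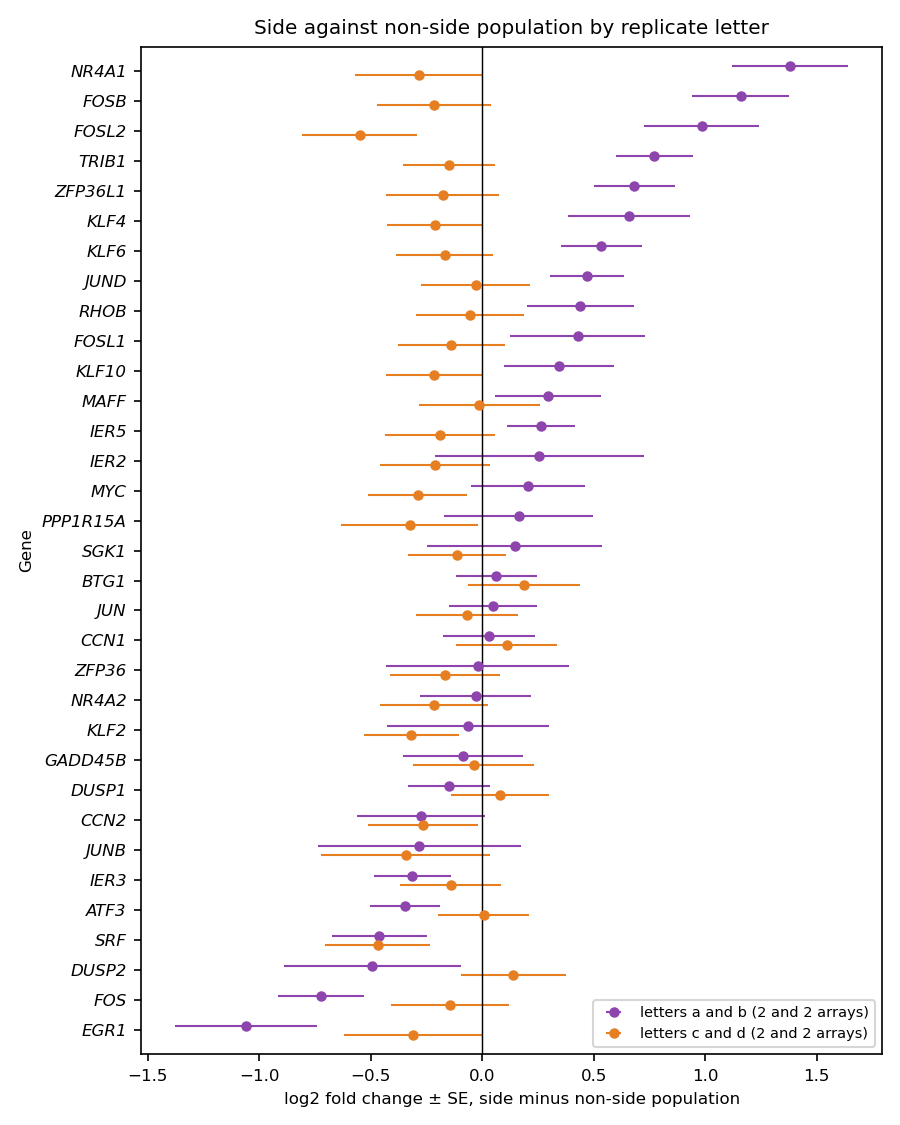
Side minus non-side population log2 fold change (point) and standard error (bar) of the 33 tested members within replicates a and b (purple) and within c and d (orange). NR4A1 and FOSB stand at 1.38 and 1.16 within a and b and below 0 within c and d, and SRF stands at -0.46 and -0.47.

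**Figure D5:**
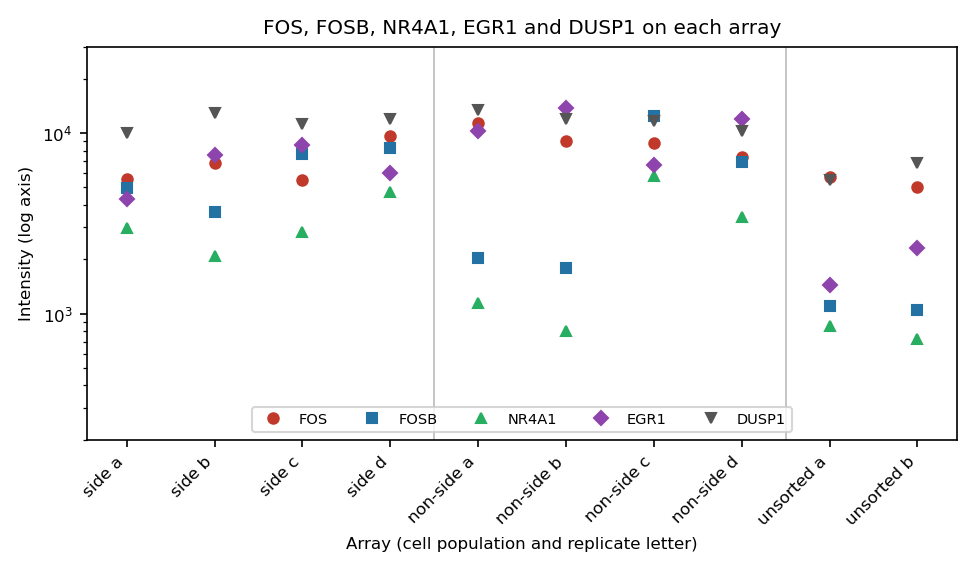
Intensity (log scale) of FOS, FOSB, NR4A1, EGR1 and DUSP1 on each array. FOSB and NR4A1 are low on non-side population replicates a and b and on both unsorted arrays, while DUSP1 is level over the 8 sorted arrays.

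The members did not vary as 1 block among the sorted arrays. From the lowest to the highest of the 8 sorted arrays, NR4A1 spanned 7.18-fold, FOSB 6.90-fold and JUNB 6.21-fold, while DUSP1 spanned 1.33-fold, JUN 1.36-fold, ATF3 1.44-fold, MAFF 1.51-fold and IER3 1.56-fold. The median standard deviation on the log2 scale was 0.40 for the members and 0.37 for all genes tested. Non-side population replicate b was the lowest sorted array for 15 of 33 members, and replicate c was the highest for 7 and the lowest for 0. The shares over all genes tested were not computed. Non-side population replicate b was also the array with the lowest median over all genes. Against each gene's own mean log2, that median was -0.09 there, where the median member was -0.29. On non-side population replicate c these were 0.03 and 0.34. As a description with no test, the 528 pairs of members had a median Pearson correlation of 0.47 over all 10 arrays, which include the low unsorted arrays, and 0.17 over the 8 sorted arrays. Within the sorted arrays FOSB went with NR4A1 at r = 0.97 and NR4A1 with ZFP36L1 at r = 0.96, IER2 went with SGK1 at r = 0.98, and JUNB with PPP1R15A at r = 0.94. FOSB ran against SRF at r = -0.81 and EGR1 at r = -0.49, and its correlation with FOS was -0.32. These values come from the same 8 arrays, including the 4 non-side population arrays in which FOSB and NR4A1 were low for letters a and b.

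Other probe sets of the members did not all read alike. Of the 33 tested members, 18 had further probe sets above the filter level, 30 in all, and in sorted minus unsorted 22 of these had the sign of the chosen set and 8 the opposite sign. Of the 13 called members, 8 had such sets, 14 in all, with 11 of the same sign and 3 opposite. The 3 were 1 further set each of ATF3 (-0.12 ± 0.37), DUSP1 (-0.15 ± 0.61) and TRIB1 (-0.73 ± 0.94), all with standard errors larger than for the chosen sets. For EGR1 the further sets gave 2.04 ± 0.19 and 1.92 ± 0.46, close to the chosen set; in side minus non-side population they gave 0.07 and 0.07, where the chosen set gave -0.69. In that comparison a further set of ATF3 gave -1.43 ± 0.33, where the chosen one gave -0.17, and further sets of KLF6 gave -0.79 ± 0.28, -0.69 ± 0.30, -0.25 ± 0.20 and 0.22 ± 0.33, where the chosen one gave 0.18. For JUN, which was not called, further sets gave 1.39 ± 0.32, 1.52 ± 0.64 and 0.15. For GADD45B, also not called, they gave 2.65 ± 0.53, 0.77 and 0.34. Further sets of other uncalled members were lower in sorted cells. They gave -1.61 ± 0.80 for RHOB, -1.26 ± 0.47 for KLF4, -1.13 ± 0.50 for ZFP36L1 and -0.54 ± 0.49 for PPP1R15A. JUND gave -0.74 ± 0.66 and -0.58 ± 0.63. FOSL2 gave -0.64 ± 0.29 and 0.70 ± 0.27, and those of NR4A1 and CCN1 gave 1.08 ± 0.46 and 0.17 ± 0.27.

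Genes upstream of the members and other response genes were followed in the same comparison. Of 36 listed kinases, ETS factors, coactivators and other upstream components, 27 were measured and tested, and in sorted minus unsorted 1 rose and 0 fell, with 16 of 27 differences negative and a median of -0.20. That is 3.7% of the 27 higher, against 3.6% of all genes tested. The 1 was ELK4, an ETS partner of SRF, at 1.16 ± 0.23 (limma adjusted p = 0.0129). Of 42 other early and delayed response genes, 36 were tested, of which 5 rose and 4 fell, with a median of 0.43, where 3.6% of all genes rose and 1.65% fell. CXCL8, the chemokine interleukin 8, rose most among these, by 3.17 ± 0.37 (limma adjusted p = 0.000525). SPRY4, SPRY2 and PHLDA2 rose by 1.59 ± 0.29, 1.47 ± 0.22 and 1.28 ± 0.25, and HBEGF, a ligand of the EGF receptor, by 1.13 ± 0.29; the SPRY proteins restrain receptor tyrosine kinase signalling. ID1 fell by 1.96 ± 0.39 (limma adjusted p = 0.0120), DUSP4 by 1.76 ± 0.25 (adjusted p = 0.00183), HES1 by 1.42 ± 0.30 (adjusted p = 0.0166) and NFKBIA, the inhibitor of NF-kB, by 0.997 ± 0.22 (adjusted p = 0.0210). DUSP6, a phosphatase induced by ERK signalling, differed by 0.44 ± 0.28 and was not called. Of 17 cytoskeletal genes that SRF is known to control, 12 were tested and 0 were called in sorted minus unsorted (limma; 3 at an unadjusted p under 0.05, where 20.3% of all genes were), with 6 positive and 6 negative differences and a median of 0.01. In side minus non-side population 0 genes of these 3 lists were called (limma; 2, 4 and 1 at an unadjusted p under 0.05).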

How the data were processed

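Per the file headers and labels, the authors deposited 1 series table of array intensity on a linear scale, 54675 probe sets on each of 10 arrays; the submitters' processing notes name GCOS 1.4, with settings not given in the sources used here. On every array the 2% trimmed mean was 500.065 to 500.095, so no further scaling was applied, and the deposited intensities were used as they were. Of the probe sets, 41091 had 1 symbol, 1801 several and 11777 none in the platform annotation, besides 62 controls; 41037 matched the reference gene table by gene identifier. Each gene took its probe set of highest mean intensity, and genes at or above the median mean log2 (intensity of 149) were tested. Before log2, 6.1 was added (the 10th percentile over the table), so fold changes of dim genes are understated. Groups were compared with R 4.3.3 and limma 3.58.1 (eBayes with a trend), all 10 arrays in 1 fit, with Benjamini-Hochberg adjustment over 9888 genes and calls at an adjusted p under 0.05. Tested on simulated data, the fit recovered 34% of changes of 1 and 79% of changes of 2 (log2) in sorted minus unsorted, and 42% and 94% in side minus non-side population. The simulated noise was normal and independent between genes and arrays, without the difference between letter pairs seen in the data. These shares therefore do not measure what could be found in the real arrays. No arrays were identical. The number of arrays, above all the 2 unsorted ones, limits the precision. Values in full were given for members called, not overlapping between groups or needed as a contrast. The members and lists were chosen with earlier results of these data known. Alternatives covered the added constant, filter, scaling, probe set choice, the limma trend, the arrays entering the fit, the replicate letter as a block and leaving out each array; the test between letter pairs was added after seeing the data.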

Additional observations from a re-analysis of the deposited data

Results flagged for a closer look

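Within each group of 4 sorted arrays, the gap of the highest or lowest array to its nearest neighbour was divided by the group's range for each tested member. Gap and range were taken on log2 values, while the readings given here are linear intensities. Of 66 such groups, 3 exceeded Dixon's critical value, and chance alone gives about 1 in 20. JUN in non-side population replicate b read 12894 where the other 3 arrays read 16949 to 17142, a ratio of 0.960. KLF2 in non-side population replicate b read 646 where the others read 1284 to 1425, a ratio of 0.868. DUSP2 in side population replicate b read 481 where the others read 1104 to 1229.5, a ratio of 0.885.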

How the results depend on the processing

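Beside each count above 0 of members called stands the share of all tested genes called, in either direction, under the same setting. The 13 members called in sorted minus unsorted (5.25% of all genes) became 8 with no filter (2.08%) and 20 with only the sorted arrays of letters c and d (19.5%), and ranged from 1 (0.142%) to 17 (6.5%) when single arrays were left out. The 7 of side population minus unsorted (2.45%) became 13 with only the compared groups in the fit (4.56%), 15 with letters a and b only (14.2%; 14 higher and ZFP36L1 lower), 15 with letters c and d only (12.2%) and 12 with the replicate letter as a block (7.54%; all higher, ATF3 no longer among them). They ranged from 0 (0.101%) to 13 (4.07%) when single arrays were left out. The 8 of non-side population minus unsorted (3.66%) became 14 with letters a and b only (26.1%; 13 higher and ZFP36L1 lower) and 19 with letters c and d only (15.4%), and ranged from 1 (0.172%) to 12 (3.87%). For side minus non-side population the count was 6 with letters a and b only (9.93%) and 0 under each other alternative run. The shares of all genes beside these 0 counts, the replicate block included, are not given here, so they describe no trait of the members. The cause of these changes was not tested. Over the 28 called member values and their alternatives, 565 of 682 values kept direction and call, 117 lost the call and 0 reversed. For each called member all sorted arrays lay above both unsorted arrays, so leaving out arrays could not reverse a direction. The further probe sets of ATF3, DUSP1 and TRIB1 with the opposite sign were not among the alternatives. The 0 reversed is therefore no measure of robustness. IER3 kept its call in sorted minus unsorted under all 24 alternatives run (1.73 to 1.95 on the log2 scale), while KLF6 lost it under 14, BTG1 under 13, CCN2 and IER5 under 10 each and FOSB under 7. With the filter at the 75th percentile SRF and NR4A2 were not tested. With the replicate block the counts were 15 in sorted minus unsorted (10.7%; 14 higher and ZFP36L1 lower), 11 in non-side population minus unsorted (9.8%; 10 higher and ZFP36L1 lower) and 0 between the populations. The titles give side and non-side arrays of 1 letter the same replicate group name, without saying what a group shares. The unsorted arrays carry other group names, so the block's match of their letters a and b to the sorted ones is an assumption. Under the block, sorted minus unsorted is estimated from letters a and b only. Same-letter arrays did not all deviate together (correlations of 0.21, 0.50, -0.11 and 0.36 for a to d). Side population replicates a and b correlated best with the non-side array of their own letter, but c with d and d with c. As the letters matched for only part of the arrays, they were not taken as pairs in the main fit. Genes of low signal are limited most, since intensities near the constant carry little of a change.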
